A study of Mus musculus with 15 samples.

Results

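The genes described here encode the initiation and elongation factors of cytoplasmic translation. They are the protein-coding genes of the RefSeq annotation of GRCm38, the assembly of mm10, whose symbols start with Eif or Eef followed by a digit, 71 of 21887 protein-coding genes. The symbols also take in kinases and methyltransferases that act on these factors. The peaks came from CUT&Tag, a method that tethers a transposase to an antibody so that DNA beside the antigen is cut and given sequencing adapters, in HPC-7 cells, an early haematopoietic line derived from mouse embryonic stem cells. Control cells were profiled for H3K4me3, for the zinc finger factor YY1, for the cohesin subunit SMC3 and for IgG, and cells with a short hairpin RNA against YY1 (shYY1) were profiled for SMC3, with about 150000 cells per reaction. Titles call the control wild type, while its descriptions carry the name of a luciferase hairpin (shLUC), and the descriptions of shYY1 all carry the number 2, which no source used here explains. The 5 groups have 3 libraries each, called biological replicates in the labels' protocol; lists of 12 of the 15 libraries were used and IgG was not analysed here. YY1 was not profiled in shYY1 cells among these libraries, which thus give no measure of how far it was depleted. The word Abcam stands in the descriptions of replicate 1 of both SMC3 arms alone, although the protocol gives an Abcam product as the SMC3 antibody, and whether the other replicates used another antibody is unclear.

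Translation begins when eIF2 brings the initiator tRNA to the small ribosomal subunit, helped by eIF1, eIF1A, eIF3 and eIF5, while the eIF4 factors bind the cap of the mRNA and unwind its leader. The guanine nucleotide on eIF2 is renewed by eIF2B, and kinases that phosphorylate the alpha subunit of eIF2 under stress block that exchange. After the subunits join, eEF1 delivers aminoacyl tRNAs and eEF2 moves the ribosome along the mRNA. YY1 binds DNA through a core of CCAT or, on the other strand, ATGG, H3K4me3 marks active promoters, and cohesin is the ring complex that forms chromatin loops.

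Bases around annotated gene starts are shown first, because the summit positions described further on refer to such starts. RefSeq promoter windows of GRCm38.p6, from 250 bases before to 50 after an annotated start, were found for 55 of the 71 genes. For a gene with several annotated starts, only the window of the start farthest upstream was used. They were searched on both strands for ATGGCG and for CCATNTT, whose reverse is AANATGG, and for AANATGGCG, which joins both and was added afterwards. Each 30-base stretch below is on the strand of its gene, with the match in capitals, and the genes shown have YY1 peaks in all 3 libraries.
Eif3f (chr7:108934417-108934446, plus strand): ctctttctcggcAAGATGGcttctccggcc
Eif2s1 (chr12:78861954-78861983, plus strand): ggttcacaccgcCCATATTaggaggaccaa
Eif4ebp2 (chr10:61452822-61452851, minus strand): cacgtccggcttCCATATTgtccctccctc
Eef2kmt (chr16:5256050-5256079, minus strand): gccccgcgggcaCCATCTTgccccgcctcc
Eif4a1 (chr11:69672572-69672601, minus strand): gtgctgggttccAAGATGGctgccccgccg
Eif5a (chr11:69922016-69922045, minus strand): cagggtttagacAAGATGGtggcttgtatc
Eif5 (chr12:111537901-111537930, plus strand): ggactaggcaggCGCCATagtgcctgaacg
Eif2b4 (chr5:31193296-31193325, minus strand): gcagcccagctCGCCATTTTggtgggcctg
Eef1b2 (chr1:63176654-63176683, plus strand): gccgctaagtcAATATGGCGgccacggcaa
Eif2s3y (chrY:1010520-1010549, plus strand): agcctttaatcCGCCATTTTacagccccgc
Eif2s3x (chrX:94212619-94212648, minus strand): ttctctccgagcAAGATGGctgggggtgag
Eef1e1 (chr13:38658979-38659008, minus strand): gagctgggccagAAGATGGCGgcggccgcg
The first 7 genes of these have SMC3 in at least 5 of 6 libraries and the last 5 in at most 3 of 6. A gene without any YY1 peak, Eif2ak1, also has a match.
Eif2ak1 (chr5:143817552-143817581, plus strand): gcctacagggatAATATGGgaagaacagag

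Either motif was found in 19 of 55 windows (34.5%), against 22.5% of the windows of all protein-coding genes. With called H3K4me3 it was 35.8%, against 25.3%. ATGGCG was in 11 (20%, against 11.2% of all), CCATNTT in 15 (27.3%, against 15.4%) and AANATGGCG in 5 (9.09%, against 3.28%). Among the 53 windows of genes with called H3K4me3, the shares were 20.8% for ATGGCG (against 16.7% of all such genes), 28.3% for CCATNTT (against 15.4%) and 9.43% for AANATGGCG (against 5.61%). Among the 25 windows whose gene had YY1 in 3 of 3 libraries, 15 (60%) held either motif, against 31.9% of such genes in all. Where YY1 was in 2 of 3 libraries it was 1 of 17 (5.88%, against 24.5%), and with no YY1 peak it was 1 of 6 (16.7%, against 18%). The share thus did not follow the number of YY1 libraries step by step. Median GC content was 61.3% in the windows of the 55 genes and 61% in all genes with called H3K4me3. Overlapping matches of ATGGCG and CCATNTT were counted separately, and only windows at starts, where YY1 peaks also lie, were searched. Of 24 matches at the 16 genes called for YY1, 22 lay inside a YY1 region, a share not computed for all genes. The 24 matches lay at a median of 198 bp from the nearest YY1 summit (17 to 644 bp). The nearest was at Eef1e1 (17 bp), while the match of Eif5a lay 644 bp from the summit and outside the region. The window of Eif5a was at the farthest upstream of its 6 annotated starts, and the YY1 summit of this gene lay 0 bp from another. Matches just behind a start can include the codon at which translation begins, which was not looked up, and a match is a stretch of letters, not a site.

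Several genes with YY1 and SMC3 in every library had no match in the window. Of these, Eef1a1 and Eif1 are shown with Eef2kmt as the contrast; each run is the 250 bases before the annotated start, with the match of Eef2kmt in capitals.
Eef1a1 (chr9:78481725-78481974, minus strand): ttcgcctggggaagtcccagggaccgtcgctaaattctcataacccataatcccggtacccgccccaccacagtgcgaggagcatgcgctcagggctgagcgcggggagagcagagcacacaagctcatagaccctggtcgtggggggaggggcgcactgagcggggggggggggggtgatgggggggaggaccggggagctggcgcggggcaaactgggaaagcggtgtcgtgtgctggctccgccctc
Eif1 (chr11:100319699-100319948, plus strand): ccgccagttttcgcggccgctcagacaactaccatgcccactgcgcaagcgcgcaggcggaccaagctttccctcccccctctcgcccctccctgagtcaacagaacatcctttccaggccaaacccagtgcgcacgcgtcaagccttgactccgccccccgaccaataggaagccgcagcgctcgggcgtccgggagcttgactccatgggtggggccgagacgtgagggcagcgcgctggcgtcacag
Eef2kmt (chr16:5255957-5256206, minus strand): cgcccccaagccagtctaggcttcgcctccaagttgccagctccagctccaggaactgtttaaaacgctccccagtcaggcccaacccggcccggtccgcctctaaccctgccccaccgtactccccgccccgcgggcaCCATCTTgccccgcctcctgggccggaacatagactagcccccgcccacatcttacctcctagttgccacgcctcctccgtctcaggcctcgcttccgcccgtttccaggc
The absence of both motifs says only that these letters are not in this window. The shorter core, CCAT or ATGG, does occur in the stretches of Eef1a1 and Eif1 and is not marked there. A run of pyrimidines that begins with C at the start of the mRNA, known in many translation factor mRNAs as the TOP element, was looked for as well. At the annotated start, a C followed by at least 4 pyrimidines was found at 2 of 55 genes (3.64%), Eif3f and Eif2s3x, against 2.17% of all genes. The stretches below begin 15 bases before the annotated start and the capitals mark the pyrimidines from that start on.
Eif3f (chr7:108934400-108934429, plus strand): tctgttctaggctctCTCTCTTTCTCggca
Eif2s3x (chrX:94212637-94212666, minus strand): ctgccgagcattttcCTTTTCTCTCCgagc
Eef1a1 (chr9:78481710-78481739, minus strand): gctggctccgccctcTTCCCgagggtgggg
Eef1a1, known for a TOP element, did not meet this rule at its annotated start, which is a T. Whether its mRNA begins at that base was not tested, so the capitals need not mark its TOP element.

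A gene was counted as having a peak in a library when a peak shared at least 1 bp with the gene extended by 2500 bp on both sides, and as called for a target when this held in at least 2 of 3 libraries. H3K4me3 lists held 16763 to 17895 peaks, YY1 lists 8469, 10699 and 3750, control SMC3 lists 4511, 4595 and 2061, and shYY1 SMC3 lists 2631, 3213 and 3032. Replicate 3 thus gave the shortest list both of YY1 and of control SMC3. Height, score and read count are not among the values of the lists, which hold the start, end and summit of each peak. The sequencing depth is therefore unknown, and fewer cells bound and less binding per cell cannot be told apart. As a check of the cell type, 10 of 10 haematopoietic progenitor genes (among them Tal1, Gata2 and Runx1) and 0 of 12 marker genes of other tissues and of pluripotent cells had called H3K4me3.

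Nearly all of the translation factor genes carried H3K4me3, most carried YY1 and fewer carried SMC3. H3K4me3 was called at 67 genes (94.4%, against 53.2% of all protein-coding genes), YY1 at 53 (74.6%, against 34.6%), control SMC3 at 29 (40.8%, against 17.5%) and shYY1 SMC3 at 23 (32.4%, against 13.2%). By library, H3K4me3 was found at 67, 67 and 67 of the genes and YY1 at 55, 59 and 32. Control SMC3 was found at 34, 34 and 14, and shYY1 SMC3 at 22, 25 and 23. Peaks in 3 of 3 libraries were found for H3K4me3 at 67 genes (94.4%, against 52.4% of all), for YY1 at 32 (45.1%, against 17.9%), for control SMC3 at 12 (16.9%, against 9.02%) and for shYY1 SMC3 at 16 (22.5%, against 8.85%). The groups of YY1 and SMC3 overlapped, since the shortest YY1 list had fewer of the genes than the longest SMC3 list.

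**Figure D1:**
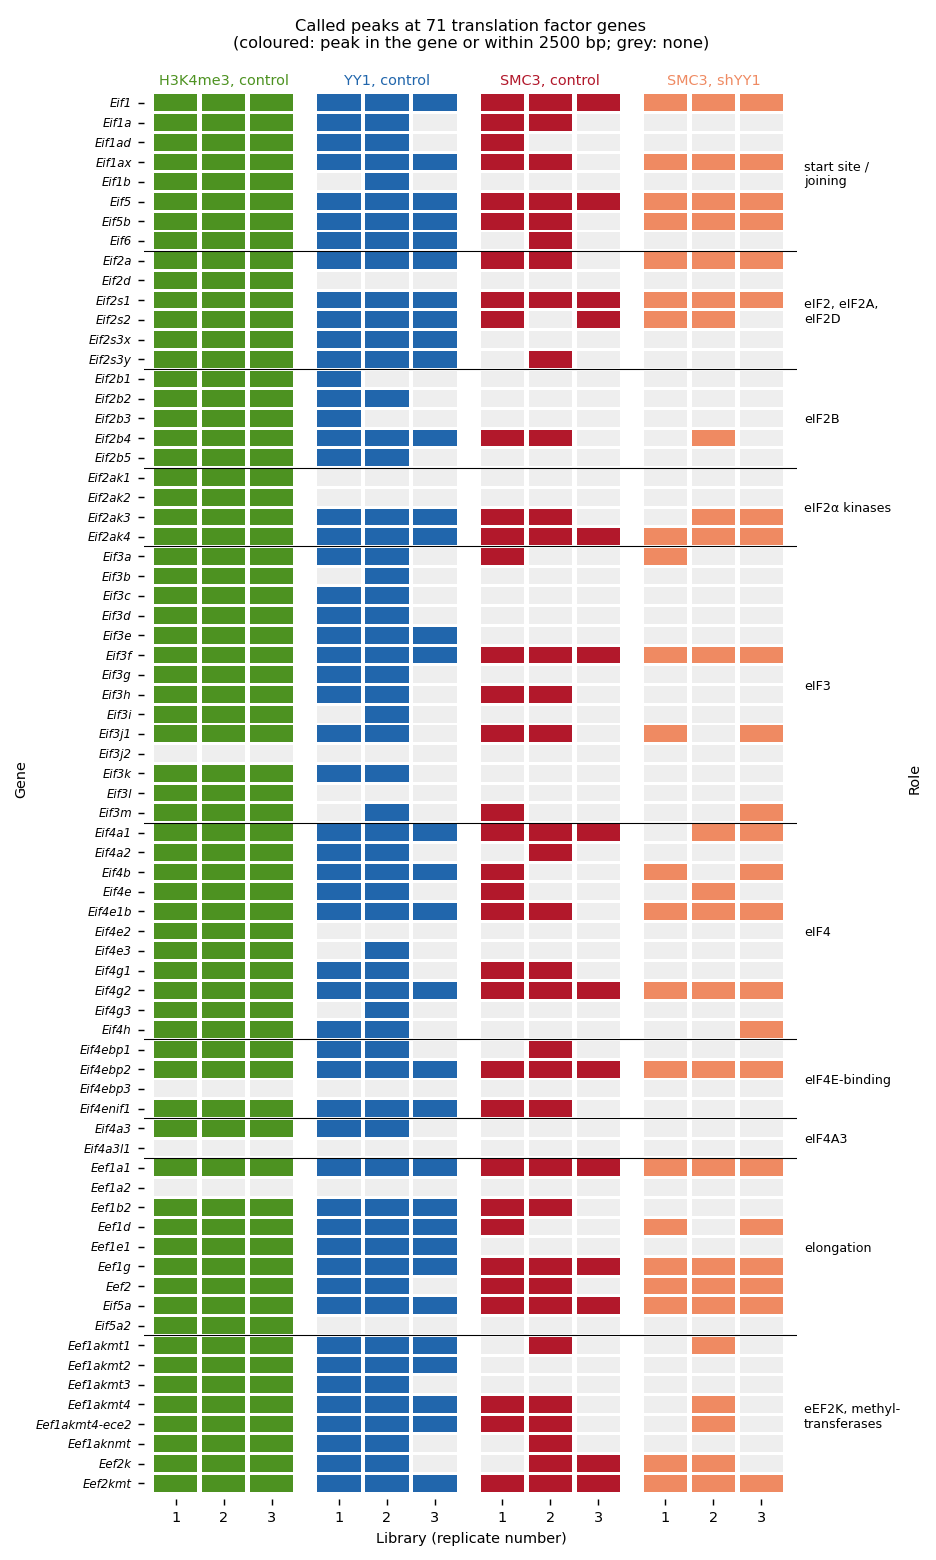
Called peaks at each of the 71 genes (rows, by role) in the 12 libraries (columns); a coloured cell is a library with a peak in the gene or within 2500 bp of it. H3K4me3 is present in all 3 libraries or in none, whereas replicate 3 of YY1 and of control SMC3 lacks many of the peaks that replicates 1 and 2 have.

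Much of the distance from the background was shared by other genes with H3K4me3. Among the 67 genes with called H3K4me3, YY1 was called at 79.1%, against 64.8% of all 11645 such genes. Control SMC3 was called at 43.3% (against 32.6%) and shYY1 SMC3 at 34.3% (against 24.7%). Among the 53 genes called for YY1, 29 (54.7%) were called for control SMC3, against 49.4% of all genes called for YY1, a share near the background. Of the 18 genes not called for YY1, 0 were called for control SMC3, against 0.566% of all such genes. The share of the translation factor genes with a peak, divided by that of all genes, ran from 2.05 to 2.46 over the YY1 libraries, from 2.01 to 2.33 over control SMC3 and from 2.28 to 2.44 over shYY1 SMC3. YY1 was found at 68.5% ± 20.5 of the genes and SMC3 at 38.5% ± 16.3 (SD, n = 3), a difference of 30 percentage points (two-sided exact permutation p = 0.3, adjusted 0.6 over 4 comparisons). The log2 of the ratio to all genes differed by 0.01 between YY1 and SMC3 (exact permutation p = 1, adjusted 1), with means of 1.15 ± 0.137 and 1.14 ± 0.116 (SD, n = 3). With 3 libraries a side the smallest possible p is 0.1, so no such difference could pass 0.05. Without replicate 3 of both targets, the shortest lists, a choice made after the data were seen, the last difference was -0.13.

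**Figure D2:**
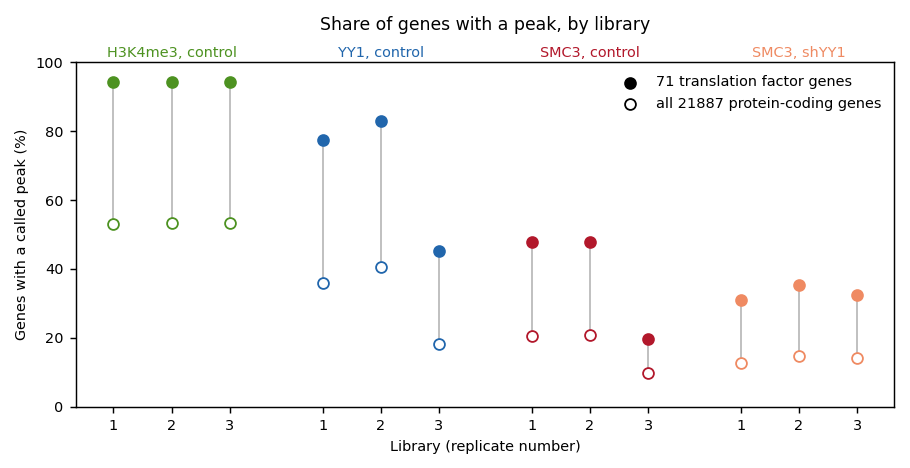
Share of genes with a peak (y axis, percent) in each library (x axis); filled points are the 71 translation factor genes and open points all 21887 protein-coding genes. Filled points lie above the open ones in every library, at 94.4% for H3K4me3, 45.1 to 83.1% for YY1 and 19.7 to 47.9% for control SMC3.

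SMC3 was called more often at genes with more YY1 libraries, as it was over all genes. Among the translation factor genes with H3K4me3, control SMC3 was called at 0 of 6 without YY1, 0 of 8 with YY1 in 1 library, 6 of 21 (28.6%) with 2 and 23 of 32 (71.9%) with 3. The same shares over all genes with H3K4me3 were 0.275, 3.86, 27.6 and 69.7%. For shYY1 SMC3 they were 0, 0, 14.3 and 62.5%, against 0.0393, 1.54, 16.4 and 57.5%. All 21 genes with YY1 in exactly 2 libraries had it in replicates 1 and 2, the longer lists, and 15 of the 17 with control SMC3 in exactly 2 likewise. SMC3 was present in all 6 libraries at 11 genes (15.5%, against 6.84% of all). All of these had YY1 in 3 of 3, so that YY1 and SMC3 were present in all 9 libraries (15.5%, against 6.23% of all); they were Eif1, Eif5, Eif2s1, Eif2ak4, Eif3f, Eif4g2, Eif4ebp2, Eef1a1, Eef1g, Eif5a and Eef2kmt. Every group of roles below had at least 1 gene among them except eIF2B (5 genes) and eIF4A3 (2 genes). The groups hold 2 to 14 genes, and differences between them were not tested. Over all protein-coding genes the called shares were 53.2% for H3K4me3, 34.6% for YY1, 17.5% for control SMC3 and 13.2% for shYY1 SMC3. Among genes with called H3K4me3 the last 3 shares were 64.8, 32.6 and 24.7%.

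Of the genes for start codon selection and subunit joining, 8 of 8 were called for H3K4me3, 7 for YY1, 5 for control SMC3 and 4 for shYY1 SMC3. Eif1, which keeps the scanning ribosome in its open state until the start codon is met, had a YY1 region at chr11:100319611-100320612 around its start. Its longest YY1 peaks measured 983, 1002 and 533 bp, a mean of 839 ± 265 bp (SD, n = 3). Its SMC3 peaks were narrow beside these, 236, 309 and 173 bp in control and 184, 168 and 215 bp in shYY1, with overlap between the arms. Its paralogue Eif1b had YY1 in 1 library (194 bp) and no SMC3. Eif5, which stimulates GTP hydrolysis by eIF2, had all 9 peaks, with YY1 lengths of 524, 753 and 467 bp. Eif1ax and Eif1a encode 2 forms of eIF1A, which works with eIF1. Libraries with a peak at Eif1ax numbered 3 for YY1, 2 for SMC3 in control and 3 in shYY1, and at Eif1a 2, 2 and 0. At Eif5b, the GTPase of subunit joining, the SMC3 region (chr1:37996984-37997411) lay 718 bp upstream of the start and 2 bp from an end of the neighbour Txndc9. Eif6, which keeps the large subunit from joining early, had YY1 in 3 libraries and SMC3 in 1. Its YY1 region (chr2:155818928-155819526) lay outside the gene, with the summit 627 bp from its nearer end and 22 bp from an end of BC029722. The SMC3 peak (chr2:155819183-155819332) lay within that region.

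The genes of eIF2 and of the other carriers of initiator tRNA were called for H3K4me3 at 6 of 6, for YY1 at 5, for control SMC3 at 3 and for shYY1 SMC3 at 3. Eif2s1, for the alpha subunit that the stress kinases phosphorylate, had YY1 peaks of 679, 624 and 502 bp. Its SMC3 peaks measured 487, 461 and 404 bp in control and 154, 459 and 411 bp in shYY1. One shYY1 library was low and the other libraries overlapped between the arms. The control SMC3 region of Eif2s1 (chr12:78861583-78862069) had its summit 361 bp upstream of the start and 297 bp from an end of Atp6v1d, so the peak cannot be given to one gene alone. Eif2s2, for the beta subunit, had YY1 in 3 libraries and SMC3 in 2 of each arm. The gamma subunit has an X-linked and a Y-linked gene. Eif2s3x had YY1 peaks of 616, 682 and 258 bp and SMC3 in 0 of 6 libraries, and Eif2s3y had YY1 peaks of 370, 523 and 339 bp and SMC3 in 1 control library (297 bp). The treatment of reads that fit near-identical copies is not stated, and calls at such pairs are uncertain. Eif2a, another carrier of initiator tRNA, had YY1 in 3 libraries and SMC3 in 2 of control and 3 of shYY1, with a summit 17 bp from its start and 46 bp from an end of Serp1. Eif2d, a further carrier, had H3K4me3 peaks of 641, 549 and 572 bp and no YY1 or SMC3.

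All 5 genes of eIF2B had H3K4me3, 3 were called for YY1, 1 for control SMC3 and 0 for shYY1 SMC3. Over all genes with called H3K4me3 the last 3 shares were 64.8, 32.6 and 24.7%. Eif2b4, for the delta subunit, had YY1 peaks of 526, 823 and 396 bp. Its SMC3 peaks were 288 and 213 bp in control replicates 1 and 2 and 252 bp in shYY1 replicate 2. The motif shown above lies in its YY1 region (chr5:31192712-31193534), 247 bp from the summit. Eif2b2 and Eif2b5, for the beta and the catalytic epsilon subunit, had YY1 in 2 libraries, Eif2b1 and Eif2b3 in 1, and these 4 genes had SMC3 in 0 of 6.

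The 4 eIF2 alpha kinases fell into 2 with and 2 without YY1. All had H3K4me3 in 3 of 3 libraries. Eif2ak4 (GCN2), which senses missing amino acids, had YY1 peaks of 350, 520 and 254 bp, control SMC3 peaks of 242, 327 and 221 bp and shYY1 SMC3 peaks of 247, 236 and 242 bp. Eif2ak3 (PERK), which senses stress in the endoplasmic reticulum, had YY1 in 3 libraries and SMC3 in 2 of each arm. Eif2ak1 (HRI), the kinase of haem shortage, and Eif2ak2 (PKR), the kinase of double-stranded RNA, had YY1 and SMC3 in none, with H3K4me3 peaks of 1392, 1066 and 929 bp and of 1157, 1017 and 1078 bp. They were among 6 genes with H3K4me3 and no YY1 peak in any library (8.96% of 67, against 21.1% of all genes with H3K4me3 in 3 of 3 libraries), beside Eif2d, Eif3l, Eif4e2 and Eif5a2.

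The largest group was the subunits of eIF3, the scaffold on the small ribosomal subunit. Of its 14 genes, 13 were called for H3K4me3, 9 for YY1, 3 for control SMC3 and 2 for shYY1 SMC3. Eif3f stood alone with all 9 peaks. Its YY1 peaks measured 275, 501 and 275 bp, its control SMC3 peaks 275, 275 and 270 bp and its shYY1 SMC3 peaks 215, 206 and 219 bp. The peaks of YY1 replicates 1 and 3 and of control SMC3 replicates 1 and 2 covered identical bases (chr7:108934137-108934411). The cause of these shared edges was not tested, and IgG was not analysed here. Every shYY1 peak of Eif3f was shorter than every control peak, and it was the 1 gene of the 11 for which this held (9.09%, against 8% of all genes with all 9 peaks). Eif3e, whose subunit links eIF3 to eIF4G, had YY1 peaks of 406, 429 and 343 bp and no SMC3. Eif3h had SMC3 peaks of 147 and 165 bp in control replicates 1 and 2 and none in shYY1. Eif3j1, for a loosely bound subunit, was called for all targets, whereas its copy Eif3j2 had no peak of any target. Eif3k had the longest H3K4me3 peaks, 2114, 2120 and 2055 bp, reaching towards Map4k1, and its YY1 region in 2 libraries lay upstream of the start on that side.

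For the cap-binding and helicase factors of the eIF4 group, 11 of 11 genes were called for H3K4me3, 8 for YY1, 4 for control SMC3 and 4 for shYY1 SMC3. Eif4g2 (DAP5), a scaffold that lacks the eIF4E site of eIF4G, had YY1 peaks of 908, 1273 and 766 bp, the longest mean of the 71 genes, at a mean percentile of 98.3 among the peaks of each list. Its SMC3 peaks measured 509, 489 and 361 bp in control and 363, 403 and 362 bp in shYY1, means of 453 ± 80.3 and 376 ± 23.4 bp (SD, n = 3), with overlapping values. Eif4g1, the main scaffold, had YY1 peaks of 266 and 293 bp and SMC3 peaks of 208 and 143 bp in replicates 1 and 2 of control only. Eif4g3 had YY1 in 1 library and no SMC3. The helicase gene Eif4a1 had SMC3 in 3 control libraries (268, 276 and 268 bp) and in shYY1 replicates 2 and 3 (268 and 302 bp), and Eif4a2 in 1 control library. Eif4e, for the cap-binding protein, had YY1 peaks of 181 and 170 bp in 2 libraries and SMC3 in 1 library of each arm. Eif4b, which assists the helicase, had YY1 peaks of 742, 920 and 429 bp and SMC3 in 1 control and 2 shYY1 libraries. At Eif4e1b the control SMC3 region (chr13:54789158-54789418) lay 829 bp from its nearer end and 186 bp from an end of Tspan17.

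Of the 4 eIF4E-binding proteins, which compete with eIF4G for the cap-binding protein, Eif4ebp2 had all 9 peaks. Its control SMC3 peaks of 253, 261 and 258 bp and shYY1 peaks of 281, 254 and 258 bp were nearly as wide as its YY1 peaks of 263, 353 and 275 bp. Eif4ebp1 had YY1 in 2 libraries and SMC3 in 1. Eif4ebp3 had no peak of any target. Eif4enif1 (4E-T), which carries eIF4E into the nucleus, had YY1 peaks of 350, 391 and 256 bp, SMC3 peaks of 255 and 255 bp in control and none in shYY1. Eif4a3, the helicase of the exon junction complex, had YY1 in 2 libraries and no SMC3, and its copy Eif4a3l1 had no peak.

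The elongation genes were called for H3K4me3 at 8 of 9, for YY1 at 7, for control SMC3 at 5 and for shYY1 SMC3 at 5. Eef1a1, whose product delivers aminoacyl tRNAs, had YY1 peaks of 760, 717 and 651 bp. Its SMC3 peaks measured 549, 400 and 402 bp in control and 524, 455 and 448 bp in shYY1, means of 450 ± 85.5 and 476 ± 42 bp (SD, n = 3) that overlapped. Eef1a2, the form of muscle and neurons, had no peak of any target. Eef1g, a subunit of the exchange complex of eEF1A, had all 9 peaks. Eef1d, for another subunit, had SMC3 in 1 library of control and 2 of shYY1. Eef1b2, for the exchange factor itself, had SMC3 peaks of 175 and 180 bp in control replicates 1 and 2 and none in shYY1. The SMC3 region of Eef1b2 lay 4354 bp from its start, towards Gpr1, while a YY1 region in 3 libraries covered the start. At Eef2, the translocase, YY1 was called at the start (chr10:81176442-81176905) and past the far end, and SMC3 only past the far end (chr10:81182677-81183069), 138 bp from an end of Dapk3. Eif5a, which relieves stalled ribosomes once it carries hypusine, had YY1 peaks of 682, 708 and 571 bp, with SMC3 peaks of 547, 380 and 434 bp in control and 359, 460 and 354 bp in shYY1. Its paralogue Eif5a2 had the shortest H3K4me3 peaks of the 67 genes, 460, 287 and 240 bp, and neither YY1 nor SMC3. Eef1e1, which despite its symbol belongs to the tRNA synthetase complex, had YY1 peaks of 193, 622 and 513 bp and no SMC3.

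All 8 genes for eEF2 kinase and the methyltransferases of elongation factors were called for H3K4me3 and for YY1, 4 for control SMC3 and 2 for shYY1 SMC3. Eef2kmt, which methylates eEF2, had YY1 peaks of 349, 462 and 244 bp, control SMC3 peaks of 204, 300 and 204 bp and shYY1 peaks of 288, 212 and 295 bp. Eef2k, which phosphorylates eEF2 and slows elongation, had YY1 in 2 libraries and SMC3 in 2 of each arm. Eef1akmt2 had YY1 peaks of 353, 404 and 250 bp and no SMC3. Eef1akmt4 and its readthrough gene Eef1akmt4-ece2 share a start and therefore the same SMC3 peaks. YY1 in 3 of 3 libraries without SMC3 in any was found at 4 of 32 genes (12.5%, against 13.8% of all), namely Eif2s3x, Eif3e, Eef1e1 and Eef1akmt2. This share was near the background.

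Eef1a2, Eif3j2, Eif4ebp3 and Eif4a3l1 were the 4 genes without H3K4me3 in any library (5.63%, against 46% of all). Each has a paralogue or copy among the 71 genes that carried H3K4me3 in 3 of 3 libraries.

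Within the genes, the peaks clustered at starts. For genes with an annotated start, the summit of the longest YY1 peak lay within 250 bp of a start in 96 of 114 pairs of gene and library (84.2%, against 65.9% for all genes). For control SMC3 it was 50 of 66 (75.8%, against 65.1%), for shYY1 SMC3 46 of 58 (79.3%, against 64.9%) and for H3K4me3 115 of 159 (72.3%, against 61.8%). Relative to the start, with upstream negative, the median summit lay at -57.5 bp for YY1, -60 bp for control SMC3, -71 bp for shYY1 SMC3 and 31 bp for H3K4me3. Where both were called, the control SMC3 region overlapped the longest YY1 region of the gene at 27 of 29 genes, with a median of 23 bp between summits. At Eef1b2 and Eef1akmt4-ece2 it did not, with 4222 and 10849 bp between summits. Taking the nearest YY1 region of each gene in place of the longest, which favours small distances, 29 of 29 overlapped, with a median of 22 bp (0 to 111 bp). Control and shYY1 SMC3 regions overlapped at 21 of 21 genes called in both, with a median of 7 bp (0 to 136 bp). Over all regions called in at least 2 libraries, some had a summit nearer to an end of another gene than to an end of the gene itself. These were 10 of 64 YY1 regions and 4 of 29 control SMC3 regions, the latter at Eif4e1b, Eif2s1, Eef2 and Eif5b. Overlaps of regions, distances between summits and nearer ends were not computed over all genes, so these counts have no background here.

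**Figure D3:**
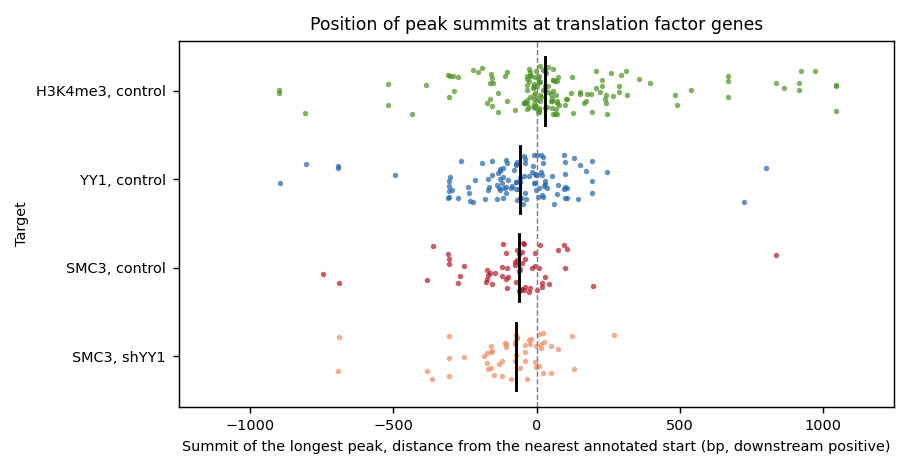
Distance from the nearest annotated start to the summit of the longest peak (x axis, bp, downstream positive), 1 point per gene and library, by target (y axis); black bars are medians. YY1 and SMC3 summits gather just upstream of the start and H3K4me3 summits just downstream; 7 H3K4me3, 2 YY1, 5 control SMC3 and 3 shYY1 summits lie outside the plotted range.

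YY1 peaks were longer at genes with SMC3 in more libraries, and the same held over all genes. The median YY1 length was 295 bp at the 19 genes with YY1 in any library and SMC3 in 0 of 6, 379 bp at the 31 with 1 to 5 and 581 bp at the 11 with 6. Over all genes these medians were 282, 392 and 521 bp. The order was not strict, with 360 bp at 1 library and 330 bp at 2. H3K4me3 medians were 1117, 1172 and 1302 bp (against 954.3, 1108 and 1221 bp). By mean percentile among the YY1 peaks of each list, the 5 highest genes were Eif4g2 (98.3), Eif1 (94.1), Eef1a1 (93.5), Eif5a (91.1) and Eif4b (88.4). Of these Eif4b alone was not called in every SMC3 library. A length is a width on the chromosome and was not a measure of height.

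**Figure D4:**
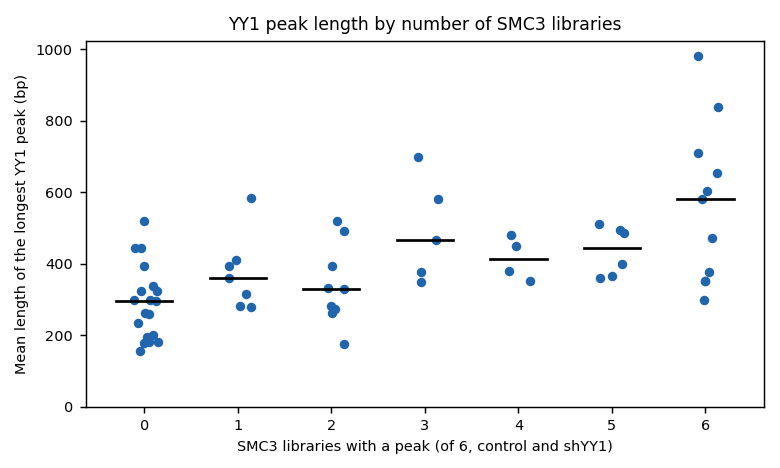
Mean length of the longest YY1 peak of a gene (y axis, bp) by the number of SMC3 libraries with a peak at that gene (x axis, of 6), 1 point per gene; bars are medians. Medians run from 295 bp at 0 to 581 bp at 6 libraries, with wide overlap between neighbouring columns.

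The last comparison asked whether SMC3 at these genes differed in shYY1 cells. SMC3 was found at 23.3 ± 1.53 of the genes in shYY1 and 27.3 ± 11.5 in control (SD, n = 3), a difference of -4 (two-sided exact permutation p = 0.6, adjusted 0.8). The value rested on the shortest control list: without control SMC3 replicate 3 the difference was -10.7, with an exact permutation p of 0.1, the lowest these libraries allow. Leaving out control SMC3 replicate 1 or 2 it was -0.667, without both libraries described as Abcam 0, and with equal numbers of longest peaks per list 2. Relative to all genes, the log2 ratio of shares was 1.25 ± 0.0527 in shYY1 and 1.14 ± 0.116 in control (SD, n = 3), higher by 0.11 in shYY1 (exact permutation p = 0.3, adjusted 0.6), and the arms overlapped. Without control SMC3 replicate 3 that difference was 0.04, and with equal numbers of longest peaks per list 0.20. Neither difference could be told from the spread of the libraries.

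No translation factor gene had SMC3 in 3 control and 0 shYY1 libraries (0.178% of all genes, 39) or the reverse (0% of all genes). All 12 genes with SMC3 in 3 control libraries had it in at least 2 shYY1 libraries (100%, against 91.7% of all such genes); they are the 11 with all 9 peaks and Eif4a1. Of the 29 genes called in control, 8 (27.6%, against 29.4% of all) were not called in shYY1, and of the 23 called in shYY1, Eif4b and Eef1d (8.7%, against 6.77%) were not called in control. SMC3 in at least 2 fewer shYY1 than control libraries was found at 5 genes (7.04%, against 2.71% of all), Eif1a, Eif3h, Eif4g1, Eif4enif1 and Eef1b2, and the reverse at 0 genes (against 0.292%). All 5 had peaks in control replicates 1 and 2 and none in the other 4 SMC3 libraries. Eif1a peaks measured 160 and 205 bp, and the 10 peaks of these genes ran from 143 to 255 bp, while the median peak of the control SMC3 lists was 245 to 250 bp. Among genes with SMC3 in exactly 2 control libraries, none in shYY1 was found at 5 of 17 (29.4%, against 23.2% of all such genes). With equal numbers of longest peaks per list, none of the 5 was called for SMC3 in control either. Of the 11 genes with all 9 peaks, 8 had a shorter mean SMC3 peak in shYY1 (72.7%, against 67.9% of all 1363 genes with all 9 peaks), a share near the background. The median of these means was 273 bp in control and 265 bp in shYY1 (against 353 and 324 bp over all such genes).

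**Figure D5:**
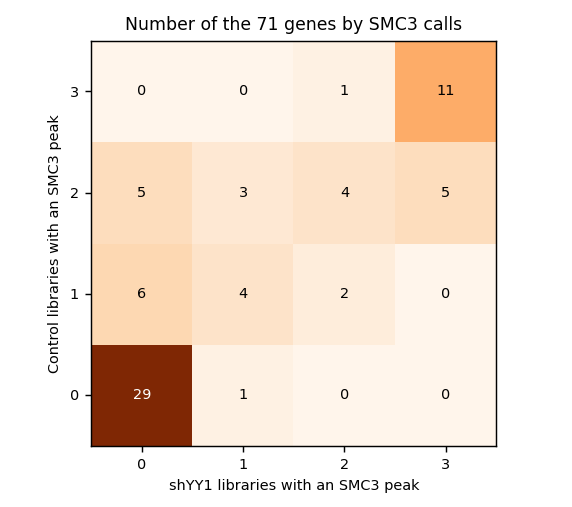
Number of the 71 genes by control libraries (y axis) and shYY1 libraries (x axis) with an SMC3 peak; darker cells hold more genes. The corners at 0 and 0 (29 genes) and 3 and 3 (11 genes) hold most genes, 5 lie at 2 control and 0 shYY1 libraries, and the corner cells for a complete switch between arms hold 0.

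Other genes of the translation pathway, 55 genes in 5 lists, were counted by the same rule. They were called for H3K4me3 at 54, for YY1 at 42, for control SMC3 at 19 and for shYY1 SMC3 at 16. The shares of all protein-coding genes were 53.2, 34.6, 17.5 and 13.2%. Of all genes with called H3K4me3, 64.8% were called for YY1, 32.6% for control SMC3 and 24.7% for shYY1 SMC3. YY1 and SMC3 were in all 9 libraries at 8 of the 55 genes, against 6.23% of all protein-coding genes. The 8 genes were the release factors Etf1 and Gspt1, the poly(A)-binding protein gene Pabpc1, the eIF4E kinase gene Mknk2, the eIF2 phosphatase subunit gene Ppp1r15b, the stress factor gene Ddit3, Dohh, which completes the hypusine of eIF5A, and the mitochondrial release factor gene Mtrf1l. Dhps, which makes the first step to hypusine, had YY1 in 3 libraries and no SMC3. By list, control SMC3 was called at 5 of 9 genes of termination and recycling, 4 of 13 of mRNA recruitment and scanning, 5 of 15 of signalling to translation, 4 of 9 of hypusine and diphthamide synthesis and 1 of 9 mitochondrial factors. The same lists had YY1 at 6, 11, 13, 7 and 5 genes. Dph1, for an enzyme that makes the diphthamide of eEF2, had SMC3 in 3 of 3 control libraries and in 0 of shYY1, and is among the 39 genes of that kind. Dph7, Ncbp2, Gfm1, Mtif3, Mtrf1, Gcn1, Tsc2 and Pelo had H3K4me3 and no YY1 or SMC3 peak, and Gspt2 had no peak of any target.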

How the data were processed

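The authors deposited 1 list of called peaks per library, with the start, end and summit offset of each peak in bp and no score; the unit of these position values is bp. Tools named in the submitters' processing notes are MACS2 2.2.9.1, Picard 3.1.1, Bowtie2 2.5.1 and cutadapt 4.5, with mm10 as the build; no source used here states their settings, the peak threshold or the role of IgG. Starts were read as counted from 0 and are printed counted from 1. The running numbers in the peak names had 49 to 99 gaps per list.

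Gene spans and promoter windows came from RefSeq (GRCm38.p6); mitochondrial genes were left out. Calls used the window and rule given above. Group means of libraries were compared by a two-sided exact permutation test over 20 assignments. Calculations used Python 3.11.15, numpy 2.4.6 and pandas 2.3.3 and were first tested on lists made with known answers. The genes, pathway lists and roles were chosen with earlier results of these data known; the roles of Eif4a3l1 and Eef1akmt4-ece2 were assigned after the files were read. Every translation factor gene could be named; values per library are given for those with all 9 peaks, SMC3 calls that differed by 2 or more libraries, no H3K4me3, the 5 longest YY1 peaks and differing paralogues, and for others to complete a role. No peak list of IgG was analysed here. The alternatives were a window of 1000 bp, peaks near gene ends only, the summit in place of any shared base, 3 of 3 libraries, equal numbers of longest peaks, leaving out libraries and a replicate block; summits within 500 bp of an annotated start, and leaving out both shortest lists, were chosen later, with the data in view. A stricter peak threshold was not run, since the lists hold no score.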

Additional observations from a re-analysis of the deposited data

How the results depend on the processing

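With 3 libraries a side no p could pass 0.05, so an unchanged side of that threshold says nothing of stability. Of the number of genes with SMC3, shYY1 minus control (-4), the value was 2 with equal numbers of longest peaks, 0 without both libraries described as Abcam, and -10.7 to -0.667 with 1 library left out. The log2 ratio of shares between the arms (0.11) was 0.20 with equal numbers of longest peaks and 0.04 to 0.15 with 1 library left out. The YY1 minus SMC3 share (30 points) was -0.469 with equal numbers of longest peaks and 20.7 to 41.8 with 1 library left out. The log2 ratio of YY1 against SMC3 (0.01) was -0.01 with a window of 1000 bp, -0.02 with gene ends only, -0.14 with the longest peaks, -0.05 with summits within 500 bp of a start, -0.13 without both shortest lists and -0.07 to 0.07 with 1 library left out. Equal numbers of longest peaks (2061 from each list) left 21 genes called for H3K4me3 (29.6%, against 11.7% of all genes). YY1 was then called at 15 (21.1%, against 10.6%), control SMC3 at 18 (25.4%, against 9.69%) and shYY1 SMC3 at 19 (26.8%, against 9.53%). In that setting 1 gene had SMC3 in all shYY1 and no control libraries (26 over all genes). Calls in 3 of 3 libraries left 32 for YY1 (45.1%, against 17.9%) and 12 for control SMC3 (16.9%, against 9.02%). With 1 library left out, which asks for a peak in both of the others, YY1 was called at 32 to 53 genes (45.1 to 74.6%, against 18 to 34.3% of all). Control SMC3 was called at 13 to 27 (18.3 to 38%, against 9.3 to 16.9%) and shYY1 SMC3 at 18 to 19 (25.4 to 26.8%, against 10 to 10.9%). Without both Abcam libraries, control SMC3 was called at 13 (18.3%, against 9.3%). The genes in all control and no shYY1 SMC3 libraries numbered 0 to 5 with 1 library left out, 5 of them without control SMC3 replicate 3, the shortest list, as also without both shortest lists (426 over all genes). The cause of these differences was not tested. With the replicate number as a block (exact sign-flip test, smallest p 0.25), the 4 differences kept their values of -4, 0.11, 30 and 0.01, with p = 0.75, 0.25, 0.25 and 1. For the pairing, the mean of each library and then the mean of each gene over its group were subtracted from the calls. Over the genes, these deviations correlated at -0.06, 0.04 and -0.06 between same-numbered libraries of the SMC3 arms. Between differently numbered ones they correlated at -0.09 to 0.12. Correlations of the calls themselves were not computed. Between YY1 and SMC3, the deviations of same-numbered libraries correlated at 0.11, 0.09 and 0.25, the last for replicate 3. Those of differently numbered ones ran from -0.19 to 0.11. Whether the numbers pair the samples cannot be told from these values. Unknown depth limits every call of no peak.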
